A study of Mus musculus with 7 samples.

Results

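The 33 genes described here encode enzymes and regulators of cholesterol and fatty acid synthesis in mouse midbrain. They were taken by symbol from the 32531 gene rows of each count table. All 33 had a row, and all 33 passed the filter on low counts together with the 17654 genes tested. Of the 33, 16 encode enzymes of the route to cholesterol, 4 are its regulators, and 13 encode enzymes that build, desaturate or elongate fatty acids. The source was the midbrain of adult Stard8-TRAP ES2342 mice that were kept as controls and given no treatment. These mice express the ribosomal protein Rpl10a fused to EGFP under the Stard8 name, so that ribosomes of the cells that use the transgene can be captured with antibodies against EGFP. Immunopurified RNA (IP) is the RNA captured with those ribosomes and gave 3 libraries, numbered 1, 2 and 4. Unbound RNA is what the beads left behind and gave 4 libraries, numbered 1 to 4. Every one of the 7 libraries came from this transgenic line, and no library of mice without the transgene was analysed here. An IP library with the number 3 was not analysed here either. Whether a number stands for 1 animal or for pooled animals is not given in the sources used here, so p-values measure only the spread between these libraries, which may be technical.

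Cholesterol is made from acetyl-CoA through mevalonate, isoprenoid diphosphates, squalene and lanosterol. The transcription factor SREBP-2, encoded by Srebf2, drives the genes of that route when sterols are low, while SREBP-1, encoded by Srebf1, acts more on fatty acid genes. Both are escorted from the endoplasmic reticulum by Scap and held there by Insig proteins. In the brain, cholesterol is made locally because lipoproteins of the blood hardly cross the blood-brain barrier. Oligodendrocytes, which build myelin, are its largest makers, and astrocytes supply neurons. Fatty acids are built by Acaca and Fasn, then desaturated by Scd enzymes, elongated by Elovl enzymes, and, for polyunsaturated chains such as docosahexaenoic acid, desaturated near the carboxyl end by Fads enzymes.

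The capture was checked on Stard8 itself, which averaged 352 ± 111 CPM in IP and 4.23 ± 0.569 CPM in unbound libraries (SD, n = 3 and 4). CPM are counts scaled to a common effective library size. The libraries are labelled as neuronal, but all 10 pan-neuronal markers were lower in IP, where their summed level lay between 3308 and 7451 CPM, against 13558 to 20146 CPM in unbound libraries. The markers of blood vessel cells led the IP libraries, with all 12 endothelial and all 10 mural markers higher, as were all 10 markers of microglia and macrophages. Of 10 astrocyte markers, 6 were higher in IP, with summed levels of 2399 to 3153 CPM, against 1312 to 1856 CPM in unbound libraries. All 10 oligodendrocyte markers were lower, with 908 to 1709 CPM in IP and 5391 to 7378 CPM in unbound libraries. Among 8 markers of oligodendrocyte precursors, 5 were lower and 1 was higher. Dopaminergic markers did not follow the pan-neuronal ones, with 1 of 8 higher and 1 lower. Their sums were 572 to 635 CPM in IP and 319 to 498 CPM in unbound libraries. Fibroblast and meningeal markers were higher in 6 of 8, with 543 to 1420 CPM in IP and 286 to 887 CPM in unbound libraries. None of these markers was at 0 in all libraries of a group. The part that these differences in cell types have in the results below was not tested. In bulk RNA, fewer cells of a type and less RNA per cell cannot be told apart.

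Upstream sequence is shown for 5 genes that stand for the patterns described below. The promoter table of RefSeq on GRCm38.p6 covered 27 of the 33 genes. It holds 250 bases before and 50 bases after each start. No entry was matched for Fads1, Fdft1, Fdps, Scd1, Scd2 and Sqle. The motifs, 3 in number, were searched by their letters on both strands, and overlapping matches were each counted. They were TCACNCCAC, which resembles the sterol response element bound by SREBPs, CCAAT, the letters of the box bound by NF-Y, and CACGTG, an E-box. Some genes have several entries, 35 in all for the 27 genes, and a gene was counted where at least 1 of its entries held the motif. The CCAAT letters occurred in 20 of the 27 genes (74.1%), against 41.1% of all 27025 genes with an entry and 42.3% of the 12167 of them tested here. They occurred in 12 of the 13 genes for enzymes of the cholesterol route, Acat2 being the one without. CACGTG occurred in 6 of 27 genes (22.2%), against 8.09% of all genes and 11% of those tested. TCACNCCAC occurred in 1 of 27 genes, Hmgcs1, and in 1.44% of all genes and of those tested. These shares are descriptions of the letters in this window, and no binding was measured. The lines below give the 250 bases before the start, 5′ to 3′ on the strand of the gene, with matches on either strand in capitals (ATTGG is CCAAT read on the other strand). Hmgcs1 (chr13:119690101-119690350, plus strand) is shown because it held the TCACNCCAC match, 137 bases before the start, and 3 CCAAT matches. Mvk (chr5:114444019-114444268, plus strand) held 5 CCAAT matches, and its RNA did not pass the test. Cyp51 (chr5:4104698-4104947, minus strand) was lower in IP and held 1 CCAAT match, 29 bases before the start. Elovl4 (chr9:83806306-83806555, minus strand) had the lowest log2 fold change of the 33 genes. None of the 3 motifs occurred before its start, while a CACGTG and a CCAAT match lay in the 50 bases after it. Fads2 (chr19:10101504-10101753, minus strand) was higher in IP, and none of the 3 motifs occurred in its window.
Hmgcs1: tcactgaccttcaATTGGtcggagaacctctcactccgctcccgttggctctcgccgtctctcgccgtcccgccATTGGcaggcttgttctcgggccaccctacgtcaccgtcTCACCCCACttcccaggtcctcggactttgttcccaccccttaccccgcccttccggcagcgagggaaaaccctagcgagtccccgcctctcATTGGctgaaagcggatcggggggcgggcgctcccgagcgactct
Mvk: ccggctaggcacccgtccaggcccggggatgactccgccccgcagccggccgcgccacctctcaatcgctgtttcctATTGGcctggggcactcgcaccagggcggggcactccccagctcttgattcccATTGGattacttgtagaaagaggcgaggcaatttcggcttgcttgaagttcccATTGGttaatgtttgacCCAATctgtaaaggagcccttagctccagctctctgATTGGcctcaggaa
Cyp51: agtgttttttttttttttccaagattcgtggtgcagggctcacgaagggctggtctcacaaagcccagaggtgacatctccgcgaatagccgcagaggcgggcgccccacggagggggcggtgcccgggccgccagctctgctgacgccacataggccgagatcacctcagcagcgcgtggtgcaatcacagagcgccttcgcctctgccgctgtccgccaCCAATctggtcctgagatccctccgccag
Elovl4: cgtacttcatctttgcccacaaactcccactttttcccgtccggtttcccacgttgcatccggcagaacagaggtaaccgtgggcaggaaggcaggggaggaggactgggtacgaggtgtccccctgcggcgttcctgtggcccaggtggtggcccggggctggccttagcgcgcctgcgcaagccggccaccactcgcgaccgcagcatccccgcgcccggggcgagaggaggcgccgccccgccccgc
Fads2: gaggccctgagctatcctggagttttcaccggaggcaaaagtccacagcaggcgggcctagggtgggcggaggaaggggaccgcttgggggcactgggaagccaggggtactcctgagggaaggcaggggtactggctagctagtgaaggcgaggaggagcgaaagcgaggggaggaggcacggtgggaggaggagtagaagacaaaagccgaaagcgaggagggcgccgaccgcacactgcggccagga

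Of the 33 genes, 2 were higher in IP, the polyunsaturated fatty acid desaturases Fads1 (2.06-fold) and Fads2 (2.04-fold). A further 6 genes were lower, namely Acat2, Fdft1, Cyp51 and Tm7sf2 of the cholesterol route and the elongases Elovl4 and Elovl6. The other 25 genes did not pass the test. The test was edgeR's quasi-likelihood test with Benjamini-Hochberg adjustment over all tested genes at 0.05. Of all 17654 genes tested, 20.5% were higher and 18.9% were lower in IP by the same test, against 6.06% and 18.2% of the 33 genes. The share of lower genes was thus near that of all genes, and the share of higher genes was below it. The median log2 fold change of the 33 genes was -0.30, and that of all tested genes was -0.10. By their CPM values alone, 4 of the 33 genes had every IP library above every unbound library, against 25.1% of all tested genes, and 6 had every IP library below, against 22.7%. Together the 33 genes took 0.188% ± 0.0142 of the counts in IP and 0.204% ± 0.0444 in unbound libraries (SD, n = 3 and 4). The recorded lane numbers were 2, 5 and 5 for IP 1, 2 and 4, and 1, 3, 1 and 3 for unbound 1 to 4. No lane number was shared by IP and unbound libraries, so lane and group cannot be told apart. The index sequence in the library names splits the libraries into ACAGTG (IP 1, IP 2, unbound 1 and unbound 2) and GTGAAA (IP 4, unbound 3 and unbound 4). Fits within 1 index do not remove the difference in lane. Within ACAGTG, 2 of the 33 genes were higher and 2 were lower (6.06% each), against 12.4% and 9.34% of the 17663 genes then tested. Within GTGAAA there is 1 IP library with no spread of its own, so the log2 fold changes there are given as values without a test. Some values below leave out 1 library, picked with its values known. Leaving out a library that lies toward the other group widens the gap by construction. A call gained in this way is a description and no support.

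**Figure D1:**
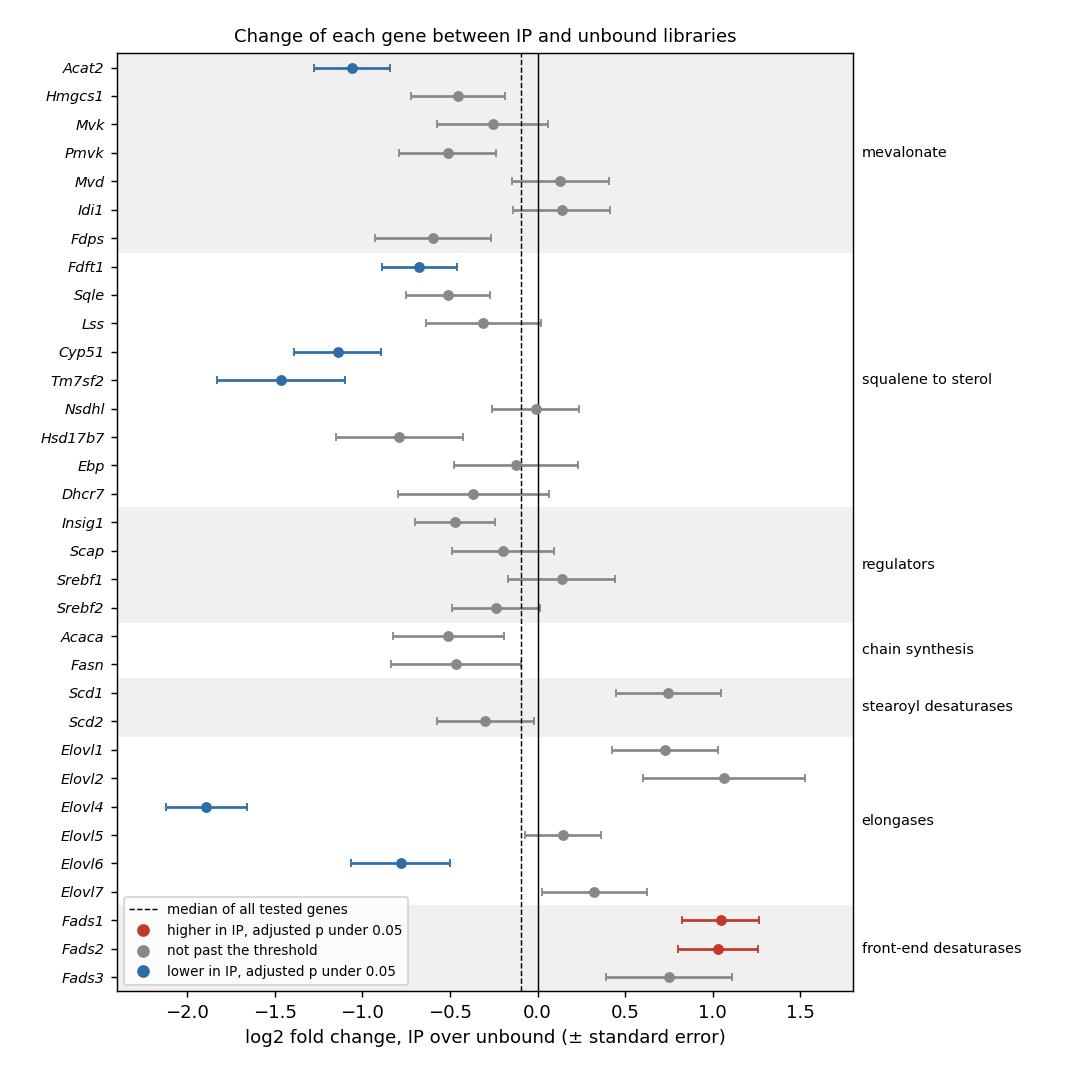
Log2 fold change, IP over unbound, of each of the 33 genes with its standard error as a bar, ordered by role. Genes that passed the test are coloured: Fads1 and Fads2 lie near 1 on the right, while Elovl4, at -1.89, lies farthest to the left.

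Enzymes of the mevalonate steps turn acetyl-CoA into farnesyl diphosphate, and 1 of 7 (14.3%) was lower in IP, against 18.9% of all tested genes. Acat2, the cytosolic thiolase that joins acetyl-CoA units, had 21.4, 26.2 and 25.2 CPM in IP 1, 2 and 4, against 58.0, 46.2, 52.9 and 45.1 CPM in unbound 1 to 4. The groups did not overlap, and every unbound library was well above every IP library. Its log2 fold change was -1.06 ± 0.22 (SE, edgeR adjusted p = 0.00321). Within index ACAGTG it was -1.13 (edgeR adjusted p = 0.0509) and within GTGAAA -0.94. Hmgcs1, the cytosolic HMG-CoA synthase, had 66.2, 66.2 and 95.7 CPM in IP libraries, against 136, 69.4, 105.8 and 106 CPM in unbound libraries. Unbound 2 lay close to the lower IP libraries and IP 4 above it, so the groups overlapped. Hmgcs1 had a log2 fold change of -0.46 ± 0.27 (SE, edgeR adjusted p = 0.203), and without unbound 2 it was -0.61 (edgeR adjusted p = 0.0402). Leaving out IP 1 gave -0.35 (edgeR adjusted p = 0.455), and leaving out unbound 3 gave -0.45 (edgeR adjusted p = 0.293). The kinases Mvk and Pmvk, the decarboxylase Mvd, the isomerase Idi1 and the farnesyl diphosphate synthase Fdps did not pass the test. Their log2 fold changes ran between -0.60 for Fdps and 0.14 for Idi1. The groups overlapped in all 5 of these genes. Fdps had 20.2, 12.7 and 17.8 CPM in IP libraries, against 19.5, 41.7, 21.8 and 19.3 CPM in unbound libraries, of which unbound 2 stood far above the other 3. Of its exon bases, 26.7% are also exon of Gm43738 on the same strand.

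The 9 enzymes from squalene to cholesterol held 3 genes that were lower in IP and none that was higher. The 3 lower genes are 33.3% of the 9, against 18.9% of all tested genes. Cyp51, the lanosterol demethylase, had 24.6, 21.6 and 33.1 CPM in IP 1, 2 and 4, against 47.1, 57.5, 72.4 and 55.7 CPM in unbound 1 to 4. Its groups were clearly apart, with IP 4 the IP library nearest to the unbound ones. Its log2 fold change was -1.14 ± 0.25 (SE, edgeR adjusted p = 0.00458), and it passed the test within ACAGTG at -1.18, while the value in GTGAAA was -0.93. Tm7sf2, a sterol reductase of the step after Cyp51, had 2.17, 2.88 and 2.99 CPM in IP libraries, against 6.58, 10.4, 6.13 and 6.46 CPM in unbound libraries. Every IP library was below every unbound library, and unbound 2 was the highest. Tm7sf2 had the lowest sterol log2 fold change, at -1.46 ± 0.37 (SE, edgeR adjusted p = 0.00915). It missed the threshold within ACAGTG (-1.75, edgeR adjusted p = 0.0586) and without IP 1 (-1.32, edgeR adjusted p = 0.0519), and was at -1.06 within GTGAAA. Fdft1, the squalene synthase that commits carbon to sterols, had 61.6, 64.3 and 83.2 CPM in IP libraries, against 101, 119.7, 117 and 107 CPM in unbound libraries. The groups did not overlap, with the smallest gap between IP 4 and unbound 1. Its log2 fold change was -0.67 ± 0.21 (SE, edgeR adjusted p = 0.0276). This call was lost within ACAGTG (-0.81, edgeR adjusted p = 0.0971), and the value within GTGAAA was -0.41. It was also lost without IP 1 (edgeR adjusted p = 0.134), without IP 2 (edgeR adjusted p = 0.13) and without unbound 3 (edgeR adjusted p = 0.0717). Fdft1 shares 18.3% of its exon bases with Ctsb on the opposite strand, and the counting is not stated to use strand. Ctsb itself had a log2 fold change of -0.16.

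The remaining 6 enzymes of this stretch did not pass the test. Sqle, the squalene epoxidase, had 42.9, 31.3 and 42.5 CPM in IP libraries, against 60.0, 41.5, 66.9 and 53.4 CPM in unbound libraries. Its groups met at unbound 2, the one unbound library inside the IP range, and its log2 fold change was -0.51 (edgeR adjusted p = 0.115). Without unbound 2, the log2 fold change of Sqle was -0.63 and that of Hsd17b7 was -0.98, and both passed the test (edgeR adjusted p = 0.0288 and 0.0325). Neither passed without IP 1 (edgeR adjusted p = 0.18 and 0.175) or without unbound 3 (edgeR adjusted p = 0.266 and 0.251). Hsd17b7, a ketosteroid reductase of C4 demethylation, had 20.5, 10.5 and 24.4 CPM in IP libraries, against 27.6, 18.7, 43.7 and 38.0 CPM in unbound libraries. Unbound 2 was again the lowest of its group and lay between the IP values. Lss, which closes squalene epoxide to lanosterol, had a log2 fold change of -0.31 ± 0.33 (SE), and Nsdhl, another enzyme of C4 demethylation, one of -0.01 ± 0.25 (SE). Ebp, the sterol isomerase, was at -0.12 ± 0.35 (SE). Its IP libraries ran between 3.52 and 7.43 CPM, and its unbound libraries were tight, at 5.65 ± 0.0781 CPM (SD, n = 4). Dhcr7, the reductase of the last step of one branch, had 10.005, 11.1 and 36.3 CPM in IP libraries, against 24.3, 20.1, 32.8 and 21.4 CPM in unbound libraries. IP 1 and IP 2 lay below every unbound library and IP 4 above every one. The spread of Dhcr7 was the widest of the 33 genes in IP, with a coefficient of variation of 77.8%. Its log2 fold change was -0.37 (edgeR adjusted p = 0.532) with all libraries and -1.22 (edgeR adjusted p = 0.0137) without IP 4. Leaving out IP 1 gave -0.04 (edgeR adjusted p = 0.956).

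Across the 16 enzymes of the cholesterol route, 14 had a log2 fold change below 0, 4 were lower by the test and none was higher. Of all tested genes, 53.6% had a log2 fold change below 0, and the 18.9% called lower compare with 25.0% of these 16. Their median was -0.48. None of the 4 regulators passed the test. Insig1, which holds SREBPs in the endoplasmic reticulum, had 44.9, 52.1 and 66.3 CPM in IP libraries, against 69.9, 70.1, 92.1 and 69.8 CPM in unbound libraries. Every IP library was below every unbound library, but the edgeR adjusted p was 0.124, at a log2 fold change of -0.47 ± 0.23 (SE). Scap, the SREBP escort, and Srebf2 had overlapping groups and log2 fold changes of -0.20 and -0.24. Srebf1 had 19.1, 19.8 and 42.8 CPM in IP libraries, against 25.1, 21.5, 26.0 and 26.3 CPM in unbound libraries. As with Dhcr7, IP 1 and IP 2 were below all unbound libraries and IP 4 above them. Srebf1 was at a log2 fold change of 0.14 with all libraries, -0.34 without IP 4 (edgeR adjusted p = 0.328) and 0.73 within index GTGAAA, where IP 4 is the only IP library.

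**Figure D2:**
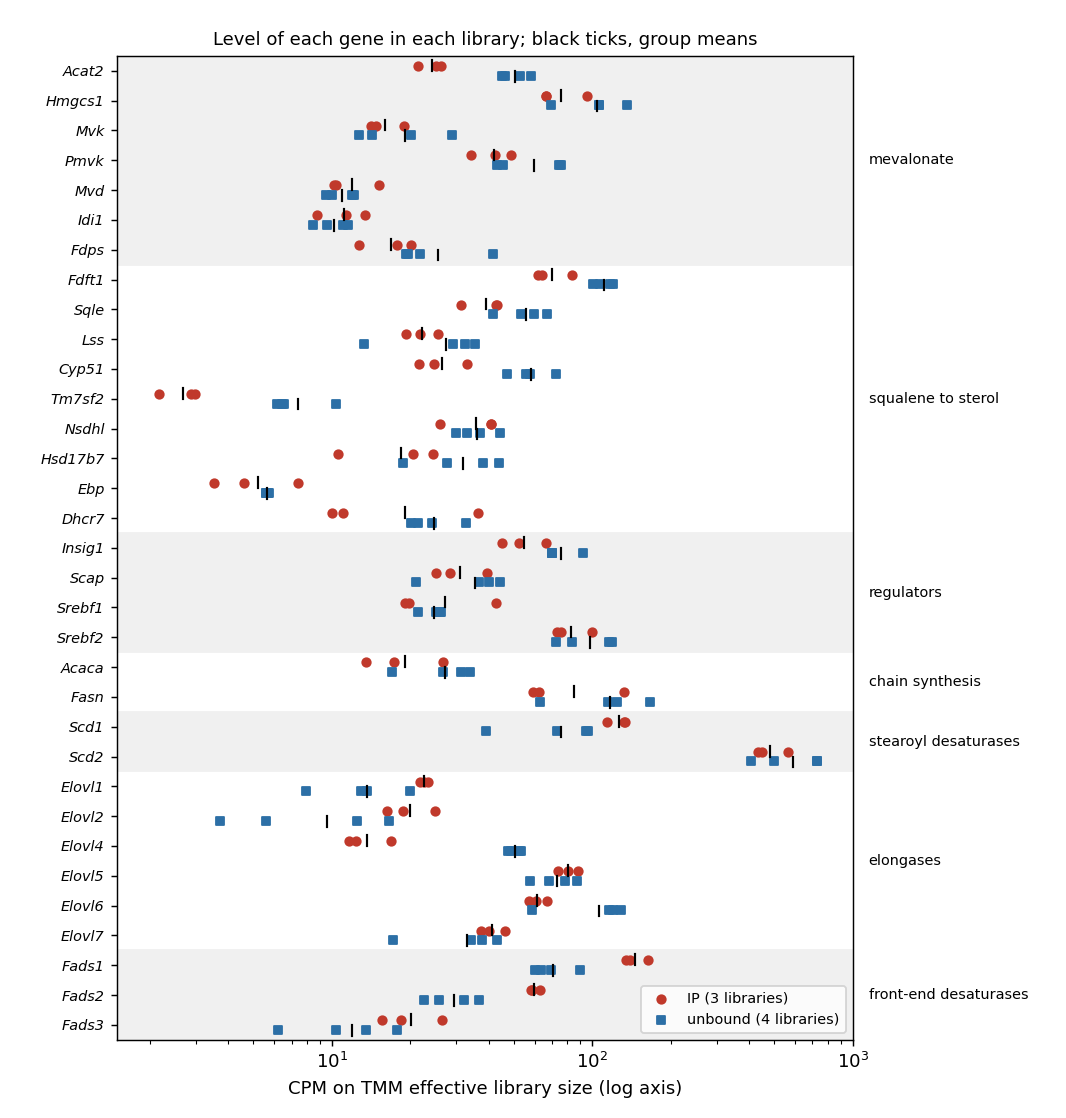
CPM of each of the 33 genes on a log axis, with 1 point per library, IP and unbound in different colours. The IP points of Elovl4, Cyp51, Acat2 and Tm7sf2 lie left of all unbound points, and those of Fads1, Fads2, Scd1 and Elovl1 lie right of them.

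The 2 enzymes that start and assemble fatty acid chains did not pass the test. Fasn, the fatty acid synthase, had 59.2, 62.6 and 132.8 CPM in IP libraries, against 166.5, 63.1, 124 and 114.8 CPM in unbound libraries. IP 4 and unbound 2 each lay with the other group. The log2 fold change was -0.46 ± 0.37 (SE, edgeR adjusted p = 0.348). Acaca, the acetyl-CoA carboxylase that makes malonyl-CoA, had 17.2, 13.6 and 26.7 CPM in IP libraries, against 26.7, 17.1, 31.4 and 33.9 CPM in unbound libraries. The pattern over libraries was like that of Fasn, with IP 4 high and unbound 2 low. The log2 ratio of Acaca to Fasn differed by -0.03 between IP and unbound (2-sided exact permutation test over 35 splits, p = 0.943, n = 3 and 4).

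The stearoyl-CoA desaturases put the first double bond into saturated chains. Scd1 had 114, 132 and 134 CPM in IP 1, 2 and 4, against 73.2, 38.9, 96.1 and 94.2 CPM in unbound 1 to 4. Every IP library was above every unbound library. The log2 fold change was 0.75 ± 0.30 (SE) and did not pass the test (edgeR adjusted p = 0.0698). Without unbound 2 it was 0.53 and did (edgeR adjusted p = 0.0399), while without IP 1 it was 0.83 and did not (edgeR adjusted p = 0.104). Scd2, the main brain form, had 446, 434 and 562 CPM in IP libraries, against 499, 406, 729.7 and 729.4 CPM in unbound libraries. Unbound 1 lay within the IP range, unbound 2 below it and the other unbound libraries above it, with a log2 fold change of -0.30 ± 0.28 (SE, edgeR adjusted p = 0.42). The ratio of the 2 genes separated the groups. The log2 ratio of Scd1 to Scd2 counts was -1.97, -1.71 and -2.07 in IP libraries, against -2.77, -3.38, -2.93 and -2.95 in unbound libraries. Every IP value was above every unbound value, by 1.09 on average. The 2-sided exact permutation test gave p = 0.0286, the smallest that 35 splits allow, and 0.114 after Benjamini-Hochberg adjustment over the 4 gene pairs tested. Within index ACAGTG the difference was 1.24, and within GTGAAA the single IP library, at -2.07, lay above both unbound libraries. For the other pairs, Srebf1 to Srebf2 differed by 0.26 (exact permutation p = 0.371) and Fads1 to Fads2 by 0.0044 (exact permutation p = 1). Scd1 and Scd2 are closely related. Reads aligned to more than 1 place were tallied apart from the gene rows. Their tally made up 36.5% ± 3.28 of the sum of all rows in IP and 24.5% ± 7.28 in unbound libraries (SD, n = 3 and 4). Whether such a read was tallied once or once per place is not given, so the share of reads is not known. How many of these reads match Scd1 or Scd2 is not known either, and their part in the ratio was not tested.

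**Figure D3:**
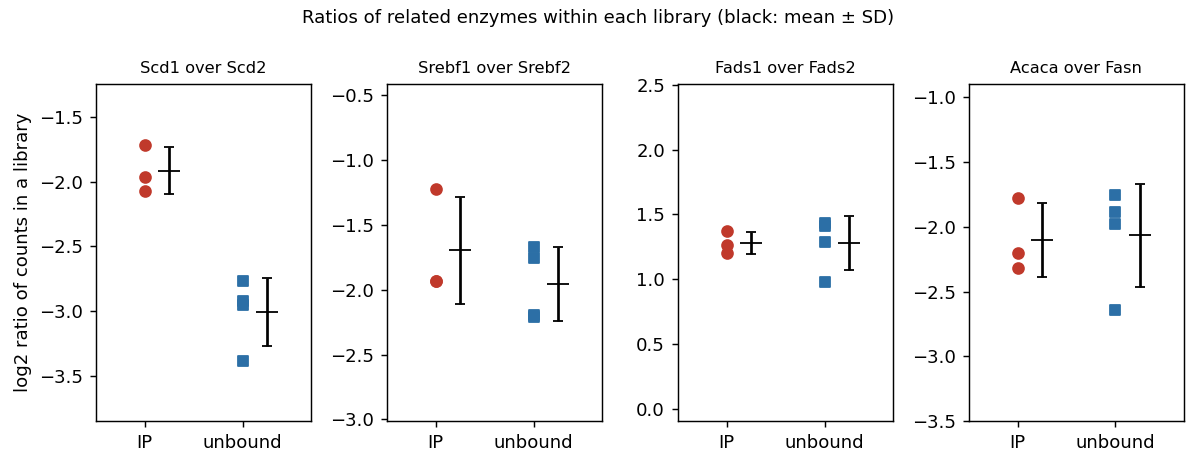
Log2 ratio of counts within 4 pairs of related genes, 1 point per library, IP left of unbound in each pair. For Scd1 to Scd2 the 3 IP libraries lie between -2.07 and -1.71 and the 4 unbound libraries between -3.38 and -2.77; in the other pairs the groups overlap.

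Elongases add carbon pairs to fatty acids, and 2 of the 6 (33.3%) were lower in IP, against 18.9% of all tested genes. Elovl4, which makes very long chains, had 12.4, 11.6 and 16.8 CPM in IP libraries, against 52.3, 53.2, 48.8 and 47.5 CPM in unbound libraries. The groups were far apart, and the unbound libraries were close to each other. Elovl4 fell by 1.89 ± 0.23 on the log2 scale in IP (SE, edgeR adjusted p = 0.000128), that is 3.71-fold lower. It passed the test within ACAGTG at -2.14, and the value in GTGAAA was -1.50. Of all tested genes, 8.38% had a lower log2 fold change than Elovl4. Elovl6, which elongates palmitate, had 57.0, 60.9 and 66.8 CPM in IP libraries, against 120.3, 58.6, 116 and 128 CPM in unbound libraries. Only unbound 2 lay within the IP range, and the log2 fold change was -0.78 ± 0.28 (SE, edgeR adjusted p = 0.0479). This call is close to the threshold. Leaving out any one of the other 6 libraries moved it past 0.05, with edgeR adjusted p-values of 0.152 without IP 1, 0.141 without IP 2, 0.081 without IP 4, 0.0887 without unbound 1, 0.104 without unbound 3 and 0.111 without unbound 4. Without unbound 2 it was 0.00135. Within ACAGTG the log2 fold change was -0.60 (edgeR adjusted p = 0.328), and within GTGAAA it was -0.85.

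The other 4 elongases lay above 0 and did not pass the test. Elovl1, which elongates saturated long chains, had 21.7, 22.7 and 23.3 CPM in IP libraries, against 7.98, 13.0, 19.9 and 13.7 CPM in unbound libraries. Every IP library was above every unbound one, and the IP libraries were the tightest of all 33 genes, with a coefficient of variation of 3.49%. The log2 fold change was 0.73 ± 0.30 (SE, edgeR adjusted p = 0.08). Without unbound 3 it was 0.96 (edgeR adjusted p = 0.0356), and without IP 1 it was 0.77 (edgeR adjusted p = 0.144). Elovl2, which elongates polyunsaturated chains on the way to docosahexaenoic acid, had 16.3, 25.0 and 18.8 CPM in IP libraries, against 3.72, 5.57, 16.5 and 12.5 CPM in unbound libraries. IP 1 and unbound 3 were level, and the unbound libraries split by index, with unbound 1 and 2 low and unbound 3 and 4 high. Elovl2 had a log2 fold change of 1.06 ± 0.46 (SE, edgeR adjusted p = 0.0902) over all libraries. It was 2.15 within ACAGTG (edgeR adjusted p = 0.022), 0.39 within GTGAAA and 1.46 without unbound 3 (edgeR adjusted p = 0.0327). Leaving out IP 1 gave 1.21 (edgeR adjusted p = 0.114). Elovl5, which also elongates polyunsaturated chains, and Elovl7 had overlapping groups and log2 fold changes of 0.15 ± 0.22 and 0.32 ± 0.30 (SE).

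The front-end desaturases held both genes that were higher in IP. Over all 13 fatty acid genes, 2 were higher, 2 were lower and the median log2 fold change was 0.32. That is 15.4% in each direction, against 20.5% higher and 18.9% lower of all tested genes. Fads1, the delta-5 desaturase, had 139.8, 164 and 135 CPM in IP 1, 2 and 4, against 63.6, 60.2, 89.8 and 69.3 CPM in unbound 1 to 4. Fads2, the delta-6 desaturase, had 58.1, 63.2 and 58.5 CPM in IP libraries, against 32.3, 22.7, 36.7 and 25.7 CPM in unbound libraries. In both genes the lowest IP library was well above the highest unbound one, unbound 3. Fads1 rose by 1.05 ± 0.22 and Fads2 by 1.03 ± 0.23 on the log2 scale (SE, edgeR adjusted p = 0.00383 and 0.00507), or 2.06-fold and 2.04-fold. Fads1 passed the test within ACAGTG at 1.29 and had a value of 0.78 in GTGAAA. Fads2 was at 1.14 in ACAGTG (edgeR adjusted p = 0.053) and 0.93 in GTGAAA. Of all tested genes, 79.4% had a lower log2 fold change than Fads1. Fads3, which lies in the same gene cluster on chromosome 19, had 15.6, 26.4 and 18.4 CPM in IP libraries, against 6.19, 17.8, 13.5 and 10.3 CPM in unbound libraries. The groups overlapped between IP 1 and unbound 2. Its log2 fold change was 0.75 ± 0.36 (SE, edgeR adjusted p = 0.123), and 1.004 without unbound 2 (edgeR adjusted p = 0.0355). Leaving out IP 1 gave 0.92 (edgeR adjusted p = 0.126). As given above, astrocyte markers were also higher in IP; their part in these values was not tested.

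IP 4 and unbound 2 stood apart from the rest of their groups in many of these genes. IP 4 was the highest IP library in 22 of the 33 genes, against 39.0% of all tested genes, and unbound 2 was the lowest unbound library in 19, against 33.7% of all tested genes. The summed markers of neurons and oligodendrocytes were also highest in IP 4 among the IP libraries, at 7451 and 1709 CPM. Fibroblast and meningeal markers summed to 1420 CPM there, against 573 and 543 CPM in IP 1 and 2. Astrocyte, oligodendrocyte precursor and microglia markers were likewise highest in IP 4, at 3153, 322 and 1313 CPM. Endothelial and mural sums were lowest there, at 2360 and 3866 CPM, and dopaminergic markers, at 572 CPM, were level with IP 1. The part of these cell types was not tested. Without IP 4 and unbound 2, 3 of the 33 genes were higher and 15 were lower, against 22.7% and 21.9% of the 18033 genes then tested. Leaving out libraries that lie toward the other group widens the gap between the groups by construction, and these 2 were picked with their values known, so the counts are a description and no support for the calls. The 3 higher genes were Fads1, Fads2 and Fads3. The 15 lower genes were the 6 named above and Hmgcs1, Sqle, Lss, Hsd17b7, Dhcr7, Insig1, Scap, Acaca and Fasn. Of the 16 enzymes of the cholesterol route, 9 were then lower, 7 of them among the 9 enzymes from squalene on. In this smaller set, the log2 fold change of Dhcr7 was -1.31 (edgeR adjusted p = 0.0041) and that of Fasn was -1.14 (edgeR adjusted p = 0.00233).

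**Figure D4:**
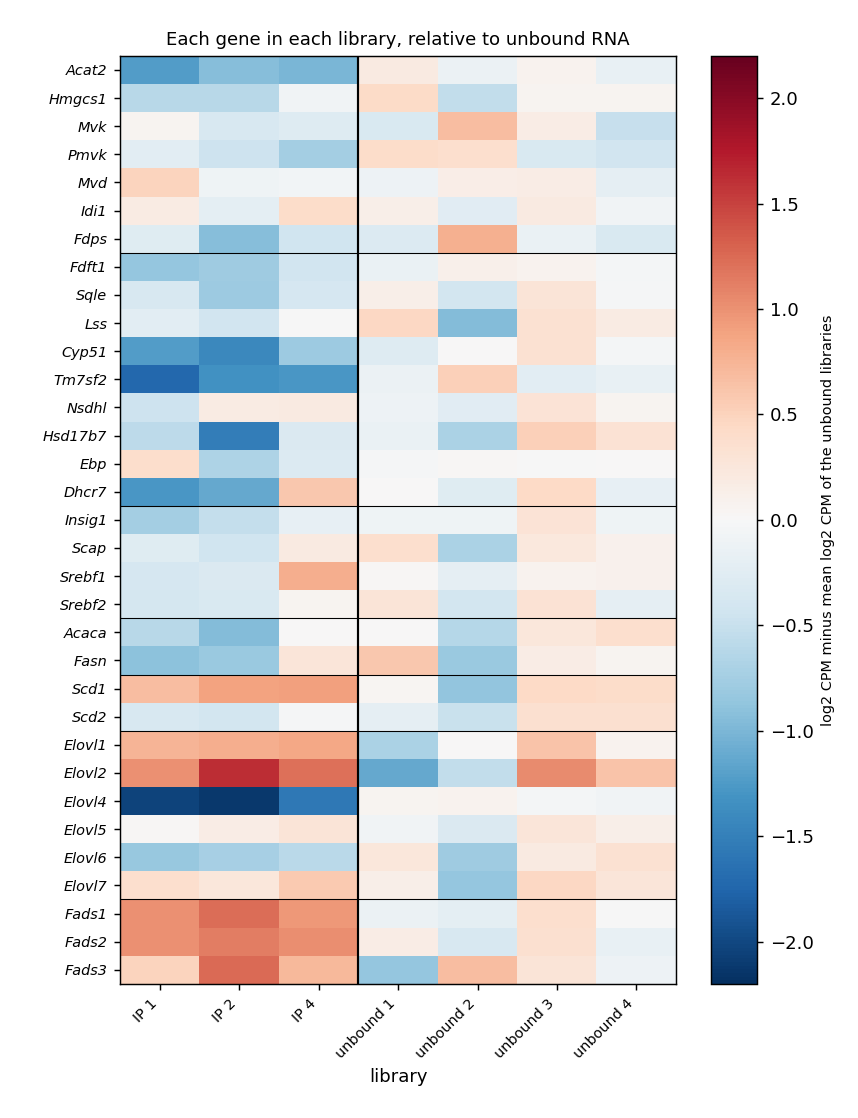
Log2 CPM of each gene in each library, relative to the mean of that gene over the 4 unbound libraries, IP libraries left of unbound ones. Red is higher and blue is lower. Columns IP 4 and unbound 2 stand apart from their groups in many rows: IP 4 is the highest IP library in 22 of 33 genes and unbound 2 the lowest unbound library in 19.

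Levels between genes were compared as CPM per kilobase of merged exon length. Scd2 led in both groups, with 88.0 ± 12.9 CPM per kilobase in IP and 108 ± 30.1 in unbound libraries (SD, n = 3 and 4). Scd2 alone held 26.5% ± 0.773 of the counts of the 33 genes in IP and 28.1% ± 4.20 in unbound libraries. The next levels in IP were Fads1 at 30.4 ± 3.22, Scd1 at 25.9 ± 2.23, Pmvk at 24.4 ± 4.23 and Elovl5 at 22.9 ± 1.99 CPM per kilobase (SD). The SD of Pmvk covered the means of Scd1 and Elovl5 there. In unbound libraries the next were Pmvk at 34.8 ± 10.4, Fdft1 at 26.3 ± 2.10, Insig1 at 24.4 ± 3.58 and Hmgcs1 at 22.7 ± 5.93 CPM per kilobase (SD), whose spreads overlapped. Fads1 stood in place 2 of 33 in IP and place 11 in unbound libraries, while Elovl4 stood in place 24 in IP and place 8 in unbound libraries. The lowest level in IP was that of Tm7sf2, at 0.608 ± 0.100 CPM per kilobase, and the lowest in unbound libraries that of Acaca, at 1.60 ± 0.435 (SD). Tm7sf2 was not separated from Acaca in unbound libraries, at 1.68 ± 0.459 CPM per kilobase (SD). Acaca also had the longest merged exon length of the 33 genes, 17.1 kilobases, and levels per kilobase depend on that length.

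Other genes of the same pathways, listed for their known roles, were counted by the same test. These lists were drawn up with earlier results of these data known, so their shares are a description. Of 68 such genes listed, 66 had a row and 62 were tested, of which 14 were higher and 12 were lower in IP. These are 22.6% and 19.4% of them, near the 20.5% and 18.9% of all tested genes. Without IP 1, and likewise without IP 2, 5 of them were lower. The share of all tested genes called lower was then 10.4% and 9.51%. Of 10 further genes of sterol synthesis and its control, 2 were lower and none was higher, with a median log2 fold change of -0.38. Insig2, which like Insig1 holds SREBPs in the endoplasmic reticulum, was one of the lower genes, at 37.4 ± 5.88 CPM in IP and 65.7 ± 17.4 CPM in unbound libraries (SD, n = 3 and 4, log2 fold change -0.81, edgeR adjusted p = 0.0298). The highest of this list was Mbtps1, the protease that makes the first cut in SREBPs, at 0.37, which did not pass the test. Of 10 genes of the isoprenoid branch, Pggt1b, the beta subunit of the enzyme that attaches geranylgeranyl groups to proteins, was higher at 1.34, and Nus1 and Coq2, of dolichol and ubiquinone synthesis, were lower at -0.94 and -0.97, around a list median of -0.33. Insig2 lost its call in 4 of 7 fits that left out 1 library, Nus1 in 3 and Coq2 in 5.

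Of 12 genes that sense, move and convert sterols, 5 were higher (41.7%) and 2 were lower (16.7%) in IP. The shares of all tested genes were 20.5% and 18.9%. The median log2 fold change of the 12 genes was 0.45. Nr1h3, the oxysterol receptor LXR alpha, had 77.4, 63.4 and 35.2 CPM in IP libraries, against 2.88, 2.41, 3.04 and 2.05 CPM in unbound libraries. Mylip, an LXR target that degrades the LDL receptor, had 109, 118 and 83.9 CPM in IP libraries, against 15.9, 9.19, 11.99 and 10.9 CPM in unbound libraries. In both genes the groups were far apart, with IP 4 the lowest IP library, at log2 fold changes of 4.50 ± 0.32 and 3.11 ± 0.26 (SE). Nr1h2, the receptor LXR beta, was at 1.23, the cholesterol exporter Abca1 at 1.31 and the lysosomal sterol carrier Npc2 at 0.90. The lower genes were Cyp46a1, the cholesterol 24-hydroxylase of neurons, at -1.77 ± 0.40 (SE), and the exporter Abcg1 at -1.07 ± 0.35 (SE). Without 1 library, Abca1 lost its call once (without IP 4, log2 fold change 1.09, edgeR adjusted p = 0.0642), and Npc2 and Abcg1 lost theirs in 4 of 7 fits each.

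Of 17 further genes of fatty acid synthesis, 3 were higher (17.65%) and 4 were lower (23.53%), around a median log2 fold change of -0.09. The shares of all tested genes were 20.5% and 18.9%. Acacb, the mitochondrial acetyl-CoA carboxylase, had 19.9, 11.4 and 22.6 CPM in IP libraries, against 1.33, 3.49, 3.78 and 2.81 CPM in unbound libraries. That was 2.66 ± 0.41 on the log2 scale (SE), with no overlap, while Acaca, given above, did not pass the test. Thrsp, a lipogenic regulator, was higher at 1.33, and Mlxipl, the carbohydrate-responsive factor ChREBP, at 2.19. Of the 6 listed enzymes that complete each elongation cycle, 3 were lower, namely the dehydratases Hacd1 at -1.87 and Hacd3 at -1.21 and the reductase Tecr at -1.50. The other 3 did not pass the test, and Hacd2 and Hacd4 lay above 0, at 0.55 and 0.86. Scd3, another stearoyl desaturase close in sequence to Scd1 and Scd2, was lower at -1.84, with 6.81 ± 3.04 CPM in IP and 24.4 ± 4.11 CPM in unbound libraries (SD, n = 3 and 4). Hacd1 lost its call without IP 1 (edgeR adjusted p = 0.058) and without IP 2 (edgeR adjusted p = 0.0563).

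Of 13 genes of fatty acid uptake, activation and binding, 5 were higher (38.5%) and 2 were lower (15.4%), around a median log2 fold change of 0.17. The shares of all tested genes were 20.5% and 18.9%. Cd36, a fatty acid translocase, had 17.9, 20.6 and 14.9 CPM in IP libraries, against 0.0251, 0.344, 1.31 and 0.265 CPM in unbound libraries. The value of unbound 1 is below the 0.0376 CPM that 3 counts stand for there, so the log2 fold change of 5.22 ± 0.85 (SE) is loosely set. Mfsd2a, the carrier of docosahexaenoic acid at the blood-brain barrier, had 55.4, 57.9 and 35.8 CPM in IP libraries, against 3.50, 6.24, 9.98 and 8.72 CPM in unbound libraries. The groups were far apart, and the log2 fold change was 2.81 ± 0.36 (SE). Fabp7, a brain fatty acid binding protein of astrocytes, was higher at 1.98 ± 0.27 (SE). The acyl-CoA synthetases Acsl1 and Acsbg1 were both higher at 1.05. Fabp3, the heart-type binding protein, was lower at -1.86, and the acyl-CoA synthetase Slc27a4 at -1.32. Acsl1 lost its call without IP 2 (edgeR adjusted p = 0.0584), and Fabp3 lost its call without IP 1 (edgeR adjusted p = 0.0708) and without IP 2 (edgeR adjusted p = 0.0819). Endothelial markers, given above, were higher in IP along with Cd36 and Mfsd2a; their part was not tested.

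**Figure D5:**
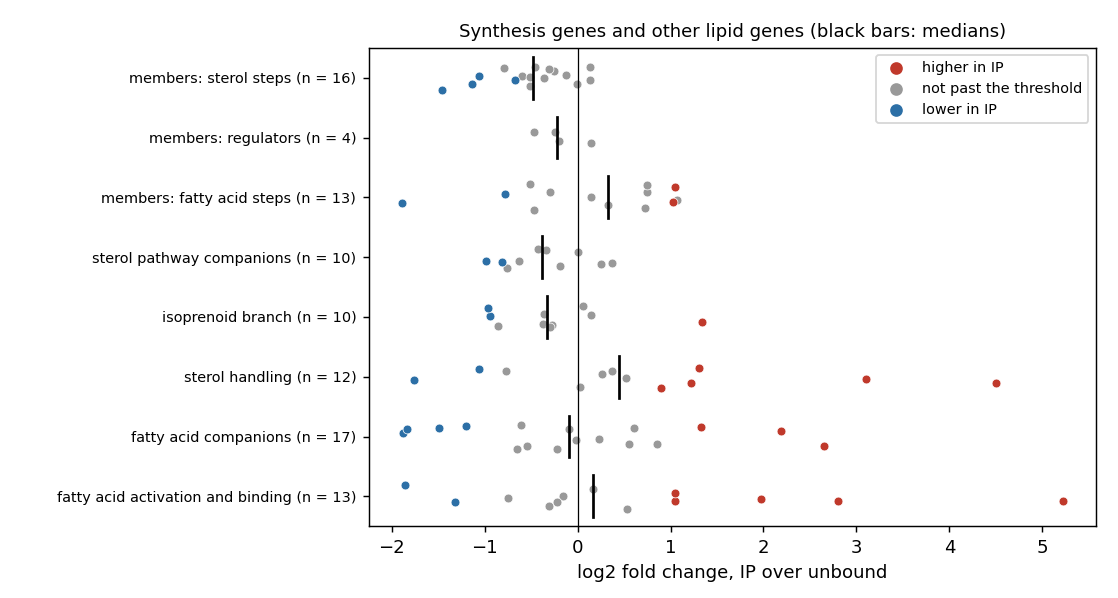
Log2 fold change, IP over unbound, of the 33 genes in 3 groups and of the other genes of the same pathways in 5 lists, 1 point per gene, with black bars at the medians and genes that passed the test in colour. The further sterol synthesis list reaches no higher than 0.37 (Mbtps1), while sterol handling reaches 4.50 (Nr1h3) and fatty acid binding 5.22 (Cd36).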

How the data were processed

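TRAP-seq libraries of mouse midbrain were analysed from the deposited tables of whole-number read counts per gene symbol, which the authors left without normalization. Per the submitters' processing notes, STAR 2.0.0e and HTSeq were used with build mm10. Which gene annotation and strand setting were used is not given in the sources at hand. Each table held 32537 rows, of which 6 name no gene and entered neither library sizes nor tests. Reads assigned to more than 1 gene made up 1.55% ± 0.107 of the sum of all rows in IP and 9.95% ± 1.89 in unbound libraries (SD, n = 3 and 4). They were not in the gene counts, which can lower the unbound counts of overlapping genes. Of the 33 genes, 12 share exon bases with another gene. The libraries held 52052340 to 76114634 counts in genes, and 3 counts stand for 0.0376 to 0.059 CPM. The lowest count of any member was 152 (Tm7sf2). Libraries of 1 group differed by more than sampling noise in every pair (chi-square per degree of freedom of 77.7 to 1206).

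Counts were filtered with filterByExpr, scaled by TMM and fitted with edgeR 4.0.16 (robust quasi-likelihood test, 2-sided, group as the only term) in R 4.3.3, with Benjamini-Hochberg adjustment over all 17654 tested genes and a threshold of 0.05. CPM use the effective library size. The standard error of a log2 fold change was taken as its size divided by the square root of F. Exon lengths and overlaps come from GENCODE M21, whose build GRCm38 is that of mm10. Ratios within 4 gene pairs were tested by exact permutation over 35 splits. The fit of IP against unbound was tested on simulated counts of 17346 genes. It called 49 of 85 genes made to differ by 2 on the log2 scale, 6 of 111 made to differ by 1, and 6 of 17150 left equal. Few genes were made to differ there, while 20.5% were called higher and 18.9% lower in the real data. With few true differences the Benjamini-Hochberg cut is stricter, so these shares do not give the power of the real test. Alternatives covered scaling by RLE or by library size only, no filter or 5 CPM in 3 libraries, DESeq2 1.42.0, limma 3.58.1 voom, glmTreat at 0.5, a replicate block, an index term, each index alone, no 10 most abundant genes, no IP 4 and unbound 2, and each library left out. All 33 genes were named. Of the other lists, the genes past the threshold and those with the highest and lowest log2 fold change were named. Single values of a few further genes are not reported here. The members and lists were chosen with earlier results of these data known.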

Additional observations from a re-analysis of the deposited data

Results flagged for a closer look

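In groups of 4 unbound libraries, 38 sets of values were examined for a library far from the other 3, and 3 were flagged. Chance flags about 1 in 20 such groups. Fdps had 41.73 CPM in unbound 2, and its next highest unbound library had 21.81 CPM. Tm7sf2 had 10.41 CPM in unbound 2, against 6.579 CPM in the next highest. Insig1 had 92.09 CPM in unbound 3, against 70.13 CPM in the next highest. The 3 IP libraries are too few for this rule.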

How the results depend on the processing

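Of 660 values of single members under 20 alternatives each, 580 kept their direction and their side of the threshold, 27 lost the call, 32 gained one and 21 changed direction. No called member changed direction, and 23 of 33 members kept theirs throughout. These tallies include the fit within GTGAAA, where 1 IP library allows no test, and the fit without IP 4 and unbound 2. Neither of these fits is support for a call. In the other alternatives, Cyp51, Elovl4 and Fads1 kept their calls throughout. Nsdhl had a log2 fold change of 0.050 with the index term, 0.081 with library size only, 0.075 with the replicate block, 0.080 within ACAGTG, 0.023 within GTGAAA, and between -0.11 and 0.19 without 1 library. Srebf1 was at -0.26 within ACAGTG, -0.40 without IP 4 and unbound 2, and between -0.34 (without IP 4) and 0.36 without 1 library. Within GTGAAA, where the single IP library is taken to vary like the unbound ones, Mvd was at -0.046, Dhcr7 at 0.44, Scap at 0.055 and Fasn at 0.17. Without IP 4 and unbound 2, Mvk was at 0.075, Idi1 at -0.088 and Elovl5 at -0.0079. Without 1 library, the log2 fold change ran between -0.071 (IP 1) and 0.24 for Mvd, between -0.46 and 0.099 (IP 2) for Ebp, between -0.0078 (IP 4) and 0.30 for Idi1, and between -0.41 and 0.016 (unbound 2) for Mvk. Members called higher numbered 5 with the index term, with voom and with the replicate block. Those 5 are 15.15% of the members, against 21.4%, 22.7% and 17.9% of all tested genes in these fits. Members called lower numbered 15 without IP 4 and unbound 2 and 2 within ACAGTG, where 3840 genes passed the threshold, 2190 higher and 1650 lower, and 9 companion genes were higher. Companion genes called lower numbered 7 under glmTreat, where 13.05% of all tested genes were called lower. The log2 ratio of Acaca to Fasn differed by 0.27 within ACAGTG. Without the 10 most abundant genes, the members' share of counts was 0.220% in IP libraries and 0.249% in unbound libraries. The cause of these moves was not tested.

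Leaving out each library in turn gave 4547 to 7682 genes past the threshold, 2796 to 4050 higher and 1751 to 3632 lower. The members called higher then numbered 2 to 4 and those called lower 3 (without IP 1) to 9 (without unbound 2). Of all tested genes, 10.4% were called lower without IP 1 and 20.9% without unbound 2. Companion genes called lower numbered 5 to 13. The difference in the Fads1 to Fads2 ratio ran between -0.095 and 0.055, and that of Acaca to Fasn between -0.23 and 0.074. Deviations of IP and unbound libraries with the same number correlated at -0.03, 0.04 and 0.16, and IP 1 correlated best with unbound 2, at 0.20. The labels do not say what a number marks, and only 1 of the 3 correlations was over 0.1. With deviations from means of 3 and 4 libraries, such correlations cannot decide whether the numbers mark pairs. The main fit and the permutation test took the 7 libraries as unpaired, and calls differ when the number is used as a block. With the replicate block, 5 members were higher (Scd1, Elovl1 and Elovl2 being gained) and 4 were lower (Fdft1 and Elovl6 being lost). Of all tested genes, 17.9% were then higher and 14.8% were lower. Scaling by library size only moved the median log2 fold change of all genes by 0.099. Taken over all genes, the spread between libraries was larger than counting error, and the number of libraries limits the precision. This does not hold for every gene. Ebp had 295 to 445 counts in unbound libraries and a coefficient of variation of only 1.38% there, and Cd36 was near the floor in unbound 1.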
